A study of Mus musculus with 24 samples.

Results

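Cells fold their secreted and membrane proteins in the endoplasmic reticulum (ER), and the 33 mouse genes described here encode the machinery of that step and the pathway that watches over it. They were chosen by name from the arrays' own gene column, with the brightest probe standing for each gene, and were 33 of the 23506 genes tested. The brightest probe of each of the 33 was well above background on all 24 arrays. The arrays hold 43 probes for these genes, of which 26 are a gene's only probe, and 2 probes of Ern1 and 1 of Dnajb11 did not pass the filter on dim probes. By role, 15 genes encode ER chaperones and folding enzymes, 7 act in ER-associated degradation or translocation, 4 are the sensors and Xbp1, and 7 form the stress arm around Atf4 and Ddit3.

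The study read total RNA of C57BL/6 mouse aortas on Agilent arrays in a single colour. The 8 groups of 3 mice combined a genotype (IL-17 knockout, or wild type), a drink (1% NaCl, or none) and an infusion (BAPN with angiotensin II, or vehicle) that ran for 3 days. BAPN blocks lysyl oxidase, which crosslinks collagen and elastin, and angiotensin II constricts vessels and raises blood pressure; mice given both are used as a model of aortic dissection, and the study asked how salt and IL-17 bear on it. In order, the groups were knockout with salt and infusion, with infusion, with salt, and vehicle controls, and wild type with the same 4 treatments. The knockout is named in the labels without its allele. Signals for Il17a and Il17f exceeded background clearly on 0 of 24 arrays, so the knockout could not be checked from its target.

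The arrays shared 4 slides, and a slide was also a scan session. Genotype and slide cannot be told apart, because knockout and wild-type arrays never shared one. Slides 1 and 2 held the knockout arrays and slides 3 and 4 the wild-type arrays. Values are log2 intensities relative to the 75th percentile of their own array, which lay between 269 and 769 before log2. Array 3 of the infusion group stood farthest from its own group mean in both genotypes. Its median absolute deviation over genes was 0.299 in the knockout and 0.254 in the wild type. Changes without salt that these 2 arrays turn in sign or call, or move by over 1.5 times, are also given without them. Leaving these arrays out was chosen after the data were seen, so the adjusted p values without them are descriptive only. The 8 smooth muscle markers, among them Acta2, Tagln and Myh11, were well above background on all 24 arrays.

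When unfolded proteins build up in the ER, 3 membrane sensors respond. The product of Ern1, IRE1, splices Xbp1 mRNA into the form that encodes an active transcription factor. Atf6 is cut from the membrane and enters the nucleus, and the Eif2ak3 product, PERK, phosphorylates eIF2 alpha, which slows translation overall while letting Atf4 mRNA be translated. Xbp1 and Atf6 are known for raising chaperones, folding enzymes and degradation genes. Atf4 raises amino acid genes and, when stress lasts, Ddit3, which encodes the pro-apoptotic factor CHOP. Much of this control is on splicing, cleavage and translation, which a gene-level array does not report.

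Some promoters of these genes carry known binding sequences for either branch. The stretches that hold them are shown for 7 genes whose values are described further on. The motifs of the Xbp1 and Atf6 branch that were searched, on both strands over the 250 bases before the start of each gene in RefSeq's table for GRCm38.p6, were the ER stress response element ERSE (CCAAT, any 9 bases, CCACG), ERSE-II (ATTGG, any 1 base, CCACG) and UPRE (TGACG directly followed by TGG). The motif of Atf4 with its C/EBP partners, called CARE, was searched as TGATG, any 1 base, AA. An ERSE-II can lie inside an ERSE, but no gene of the set held both, and no motif shown overlaps another. ERSE stood in 9 of the 29 genes with a window (31%), against 0.113% of the 32851 windows in the table. These were Hspa5, Hsp90b1, Dnajc3, Pdia6, Calr, Canx, Creld2, Syvn1 and Derl3. ERSE-II stood in Herpud1 alone of the 29, against 0.0304% of all windows, and UPRE in 0 of the 29, against 0.563%. CARE stood in Herpud1, Atf3, Chac1 and Asns (13.8% of the 29), against 3.45% of all windows. Hyou1, Manf, Derl1 and Atf6 had no window. The 200 bases before the start are given 5′ to 3′ on the strand of the gene, with the motif in capitals (ERSE in Hspa5, Calr and Derl3; ERSE-II and CARE in Herpud1; CARE in the other 3); a motif on the opposite strand reads as its reverse complement.
Hspa5, chr2:34771890-34772089, plus strand: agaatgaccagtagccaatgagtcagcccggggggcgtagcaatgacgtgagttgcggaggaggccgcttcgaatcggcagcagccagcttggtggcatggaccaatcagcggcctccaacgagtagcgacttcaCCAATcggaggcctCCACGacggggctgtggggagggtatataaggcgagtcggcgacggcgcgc
Calr, chr8:84846932-84847131, minus strand: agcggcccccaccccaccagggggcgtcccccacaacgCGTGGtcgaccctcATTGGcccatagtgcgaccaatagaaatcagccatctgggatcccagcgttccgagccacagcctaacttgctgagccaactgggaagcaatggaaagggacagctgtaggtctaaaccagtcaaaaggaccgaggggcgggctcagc
Derl3, chr10:75893198-75893397, plus strand: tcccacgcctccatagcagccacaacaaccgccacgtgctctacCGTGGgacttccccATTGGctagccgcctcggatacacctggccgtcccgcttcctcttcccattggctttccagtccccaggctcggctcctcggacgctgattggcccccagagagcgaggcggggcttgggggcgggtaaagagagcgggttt
Herpud1, chr8:94386229-94386428, plus strand: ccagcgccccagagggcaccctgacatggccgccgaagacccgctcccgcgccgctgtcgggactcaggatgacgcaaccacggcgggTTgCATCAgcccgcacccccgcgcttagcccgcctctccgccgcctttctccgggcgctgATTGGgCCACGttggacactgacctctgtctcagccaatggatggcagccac
Asns, chr6:7693210-7693409, minus strand: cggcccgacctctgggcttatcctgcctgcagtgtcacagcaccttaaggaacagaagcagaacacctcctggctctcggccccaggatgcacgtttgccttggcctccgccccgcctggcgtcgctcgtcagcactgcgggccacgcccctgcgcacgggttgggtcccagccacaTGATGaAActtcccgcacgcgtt
Chac1, chr2:119351042-119351241, plus strand: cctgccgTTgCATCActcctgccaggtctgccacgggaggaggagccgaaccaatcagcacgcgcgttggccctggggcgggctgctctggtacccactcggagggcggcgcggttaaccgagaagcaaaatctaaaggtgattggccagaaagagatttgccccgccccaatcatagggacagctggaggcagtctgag
Atf3, chr1:191183334-191183533, minus strand: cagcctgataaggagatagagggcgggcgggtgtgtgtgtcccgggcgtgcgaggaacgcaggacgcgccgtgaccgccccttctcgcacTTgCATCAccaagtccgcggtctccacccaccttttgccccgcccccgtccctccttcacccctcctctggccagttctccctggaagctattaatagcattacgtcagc

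With infusion, most of the ER chaperones and folding enzymes rose in both genotypes and on either drink. Of the sensors and Xbp1 only Xbp1 was called, in 1 comparison, and the stress arm had calls in both directions. Infused and vehicle arrays lay on different slides in wild-type aortas without salt and in the knockout on salt. Salt and infusion against controls in the knockout was also read across slides. Infusion and slide are mixed in these comparisons. Of the 33 genes, 21 rose and 2 fell in salt-drinking wild-type aortas with infusion against salt alone, where 32.9% of all 23506 genes were called (16.3% higher and 16.6% lower). In wild-type aortas without salt, 13 rose and 2 fell with infusion against controls, where 25.9% of all genes were called (12.2% higher and 13.7% lower). In the knockout, 15 rose and 1 fell with infusion on top of salt, beside 25.2% of all genes (13.4% higher and 11.8% lower), and 17 rose and 0 fell with infusion without salt, beside 30.6% (14.4% higher and 16.2% lower). Salt and infusion together, against controls, raised 20 and lowered 0 in the wild type, beside 28.7% of all genes (13.2% higher and 15.5% lower), and raised 17 and lowered 1 in the knockout, beside 25.5% (12.7% higher and 12.8% lower). A gene was called at limma's adjusted p under 0.05 across all genes. The median log2 change of the 33 genes was 0.72 and 0.20 in wild-type aortas with and without salt and 0.48 in the knockout on either drink, while the medians of all genes lay between -0.07 and -0.02 in these 6 comparisons, of which the last 2 share their control arrays with the comparisons without salt.

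Called higher in all 4 comparisons of an infused group with the vehicle group of the same genotype and drink were 12 of the 33 genes (36.4%), against 1540 of all 23506 genes (6.55%). They were 8 chaperones and folding enzymes (Hspa5, Hsp90b1, Dnajb11, Sdf2l1, Pdia6, P4hb, Calr and Manf), Derl1 and Sec61b of degradation and translocation, and Chac1 and Asns of the stress arm. The count of 12 rests in part on wild-type aortas without salt, where 0 of the 33 rose once slide was a fixed term, as described further on. A further 9 rose in 1 to 3 of the comparisons. Herpud1, Ddit3, Atf3 and Ppp1r15a fell at least once, and 8 genes were never called in these 4 (Dnajb9, Dnajc3, Sel1l, Syvn1, Ern1, Eif2ak3, Atf6 and Trib3).

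**Figure D1:**
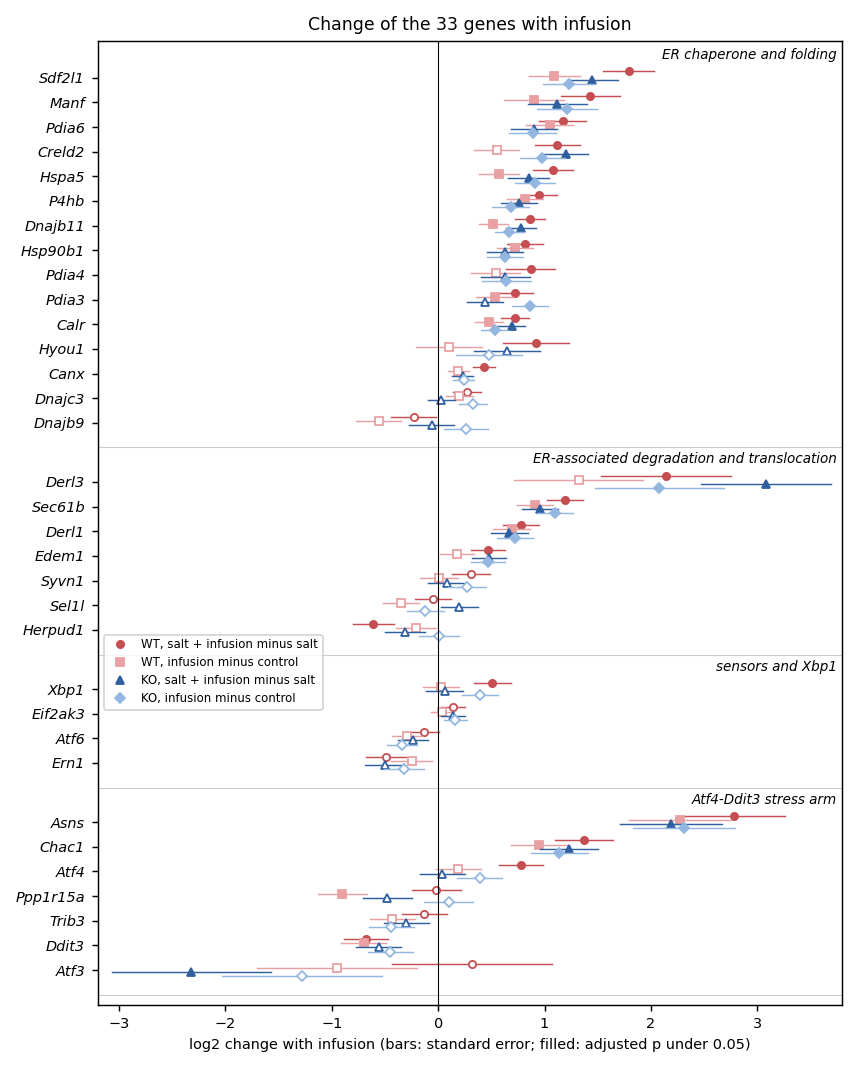
Log2 change with infusion (x axis) of each of the 33 genes (rows, by role), in wild-type (WT, red) and knockout (KO, blue) aortas with or without salt; bars are the standard error, and filled symbols passed limma's adjusted p of 0.05. All chaperones but Dnajb9 lie right of 0 in the 4 comparisons, whereas the stress arm runs from Asns, highest at 2.78, to Atf3, lowest at -2.32.

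Hspa5 (probe at chr2:34631913-34631972, mm9) encodes BiP, the main Hsp70 chaperone of the ER lumen, which also holds the sensors inactive. In wild-type aortas it read 6.47, 6.79 and 7.13 with salt and infusion, against 5.67, 5.81 and 5.67 with salt alone, and 6.51, 6.59 and 5.93 with infusion, against 5.88, 5.89 and 5.54 in controls. In the knockout it read 6.84, 7.15 and 7.42 with salt and infusion, against 6.12, 6.38 and 6.35 with salt alone, and 7.21, 7.0 and 7.32 with infusion, against 6.41, 6.12 and 6.26 in controls. Infused and vehicle arrays did not overlap in any of the 4 comparisons, and the narrowest gap was that of array 3 of the wild-type infusion group, at 5.93, to the highest control, at 5.89. The log2 change was 1.08 ± 0.19 (SE, n = 3 per group; adjusted p = 0.000559) with salt and 0.57 ± 0.19 (adjusted p = 0.0326) without salt in wild-type aortas. Quantile normalisation or the authors' processed values gave 0.41 and 0.40 for the last of these, and neither passed (adjusted p = 0.0778 and 0.0783). In the knockout it was 0.85 ± 0.19 with salt (adjusted p = 0.00361) and 0.91 ± 0.19 without (adjusted p = 0.00176).

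Sdf2l1 and Dnajb11 encode partners of BiP, and the Dnajb11 product is a J-domain co-chaperone that hands it unfolded chains. Sdf2l1 read 0.65, 1.07 and 1.77 with salt and infusion, against -0.73, -0.38 and -0.78 with salt alone, and 0.88, 0.85 and 0.43 with infusion, against -0.43, -0.20 and -0.48 in controls, in wild-type aortas. In the knockout Sdf2l1 read 1.32, 1.46 and 1.99 with salt and infusion, against -0.09, 0.33 and 0.17 with salt alone, and 1.76, 1.36 and 1.20 with infusion, against 0.24, 0.07 and 0.31 in controls. Its groups never overlapped, and its log2 changes of 1.09 to 1.79 (adjusted p at most 0.0032) were the highest of the 15 chaperone genes in each of the 4 comparisons. Dnajb11 in wild-type aortas read 3.66, 3.73 and 4.09 with salt and infusion, against 2.96, 2.97 and 2.96 with salt alone, and 3.75, 3.72 and 3.30 with infusion, against 3.15, 3.14 and 2.92 in controls. Knockout aortas gave Dnajb11 values of 3.75, 4.01 and 4.18 with salt and infusion, against 3.12, 3.30 and 3.16 with salt alone, and 4.06, 3.71 and 3.87 with infusion, against 3.23, 3.14 and 3.28 in controls. Every infused array again lay above every vehicle array, with log2 changes of 0.52 to 0.86 and adjusted p of 0.0136 or less.

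P4hb encodes protein disulfide isomerase, which is also the beta subunit of the enzyme that hydroxylates proline in collagen. It read 5.22, 5.14 and 5.59 with salt and infusion, against 4.33, 4.51 and 4.26 with salt alone in wild-type aortas, and 5.51, 5.29 and 4.76 with infusion, against 4.47, 4.47 and 4.15 in controls. Knockout aortas read 5.55, 5.27 and 5.56 with salt and infusion, against 4.72, 4.73 and 4.65 with salt alone, and 5.54, 5.52 and 5.15 with infusion, against 4.80, 4.68 and 4.68 in controls. The groups were apart in all 4 comparisons and the log2 changes were 0.68 to 0.95 (adjusted p at most 0.00579). Calr encodes calreticulin, a lectin chaperone of glycoproteins. Calr read 5.50, 5.58 and 5.97 with salt and infusion, against 4.84, 5.13 and 4.92 with salt alone, and 5.69, 5.59 and 5.39 with infusion, against 5.06, 5.06 and 5.10 in controls, in wild-type aortas. The knockout read 5.69, 5.61 and 5.91 with salt and infusion, against 4.91, 5.14 and 5.09 with salt alone for Calr, and 5.72, 5.56 and 5.47 with infusion, against 5.04, 5.03 and 5.07 in controls. Its control arrays lay within 0.10 of each other in both genotypes, and its log2 changes were 0.48 to 0.72 (adjusted p at most 0.0104).

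Creld2, whose product is an ER stress-inducible disulfide isomerase, read 4.52, 4.88 and 5.32 with salt and infusion, against 3.78, 3.86 and 3.72 with salt alone in wild-type aortas, and 4.63, 4.78 and 4.04 with infusion, against 4.10, 3.98 and 3.72 in controls. In the knockout Creld2 read 5.17, 5.36 and 5.89 with salt and infusion, against 4.16, 4.41 and 4.24 with salt alone, and 5.48, 5.10 and 5.37 with infusion, against 4.52, 4.17 and 4.32 in controls. It rose in 3 of the 4 comparisons and overlapped only in wild-type aortas without salt (0.55 ± 0.21, adjusted p = 0.0667), where infusion array 3 lay between the controls. With the third infusion arrays left out, of both genotypes, its log2 change there was 0.77 (adjusted p = 0.0102).

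Of the other chaperone genes, Hsp90b1, the ER's Hsp90, and Pdia6, a disulfide isomerase, rose in all 4 comparisons, by 0.63 to 0.82 and 0.89 to 1.17 on the log2 scale. Manf, a secreted ER-stress factor, rose in all 4 as well, though its arrays overlapped in wild-type aortas without salt, with means of 4.68 ± 0.21 with infusion and 3.46 ± 0.13 in controls of the knockout, and 3.30 ± 0.75 with infusion and 2.40 ± 0.28 in controls of the wild type (SD, n = 3 each). Pdia3 rose in 3 and Pdia4 in 2 of the 4, with changes of 0.44 to 0.86 and 0.54 to 0.87. Canx, the membrane-bound lectin chaperone, and Hyou1, an exchange factor for BiP, rose only in salt-drinking wild-type aortas among these 4, by 0.43 and 0.92. Neither gene passed the tests of a difference between comparisons given further on. Dnajc3, which binds BiP and restrains PERK, had changes of 0.03 to 0.33 in the 4 comparisons and passed only with salt and infusion against wild-type controls (0.44, adjusted p = 0.0149). Dnajb9, a co-chaperone that restrains IRE1, was below its vehicle group in 3 of the 4 comparisons and was called in none (-0.56 to 0.26), and its second probe gave changes of the same size, from -0.50 to 0.29. When the third infusion arrays were left out, Dnajb9 fell in wild-type aortas without salt (-0.52, adjusted p = 0.0192) and its sign turned in the knockout without salt (-0.07, adjusted p = 0.758). Without them, Dnajc3 (0.30) and Pdia4 (0.68) passed in wild-type aortas without salt (adjusted p = 0.0477 and 0.00857), and Hyou1 was at 0.26 in the knockout without salt, against 0.48 with them.

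**Figure D2:**
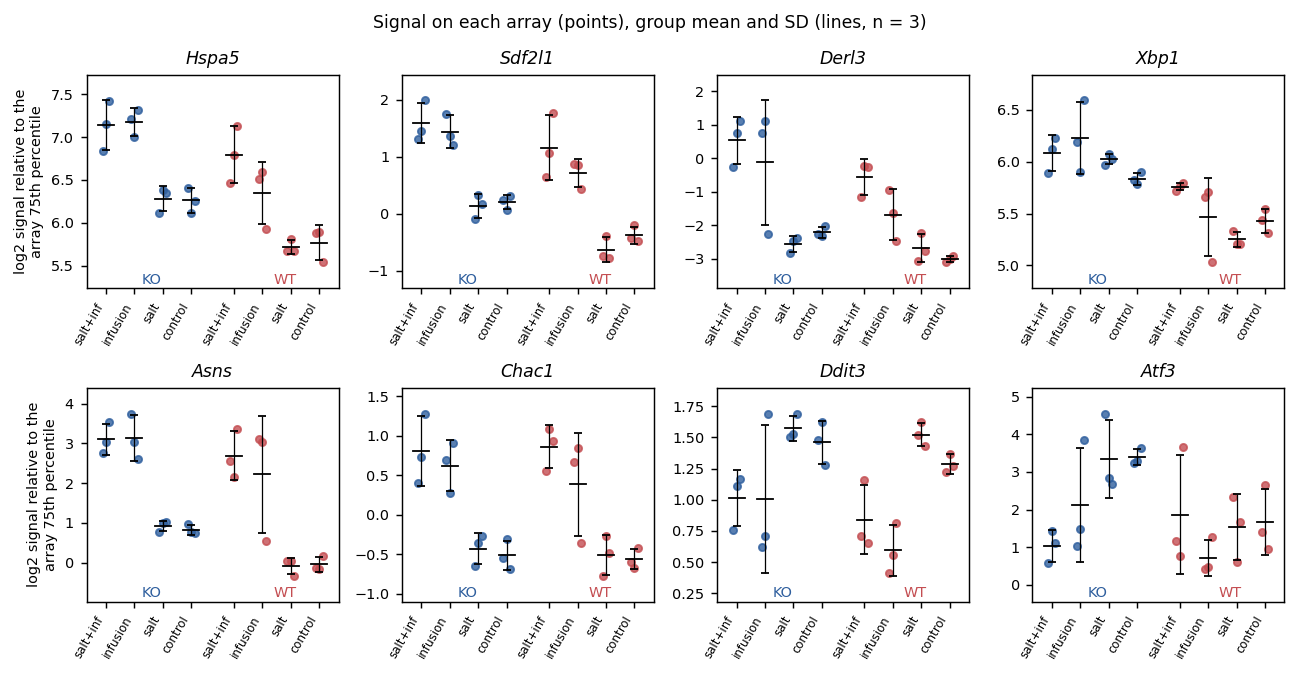
Log2 signal relative to the array's 75th percentile (y axis) of 8 of the genes on each of the 24 arrays (points, n = 3 per group), with group mean and SD (lines), knockout (KO) left of wild type (WT). Hspa5, Sdf2l1, Asns and Chac1 stand higher in the infused groups, Ddit3 lower in most infused arrays, and the third knockout infusion array lies apart for Derl3, Ddit3 and Atf3.

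Of the 7 genes of degradation and translocation, Sec61b and Derl1 rose in all 4 comparisons, Derl3 and Edem1 in 3, Herpud1 fell in 1, and Sel1l and Syvn1 were not called. Sec61b, a subunit of the channel through which new chains enter the ER, read 6.59, 6.50 and 6.95 with salt and infusion, against 5.51, 5.57 and 5.38 with salt alone in wild-type aortas, and 6.95, 6.70 and 6.21 with infusion, against 5.67, 5.68 and 5.77 in controls. Knockout values of Sec61b were 6.78, 6.69 and 6.86 with salt and infusion, against 5.71, 5.85 and 5.89 with salt alone, and 7.08, 6.99 and 6.42 with infusion, against 5.72, 5.69 and 5.77 in controls. No infused array reached down to a vehicle array, with log2 changes of 0.91 to 1.19 and adjusted p of 0.00132 or less. The other 2 probes of Sec61b gave changes of 0.41 to 1.26, of which 1 in wild-type aortas without salt did not pass (0.41, adjusted p = 0.134).

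Derl1 and Derl3 encode derlins, membrane proteins through which misfolded chains leave the ER. Derl1 read 3.20, 2.95 and 3.42 with salt and infusion, against 2.40, 2.42 and 2.41 with salt alone, and 3.31, 3.29 and 2.56 with infusion, against 2.22, 2.47 and 2.38 in controls, in wild-type aortas. The knockout gave Derl1 values of 3.55, 3.35 and 3.58 with salt and infusion, against 2.88, 2.84 and 2.75 with salt alone, and 3.60, 3.69 and 3.21 with infusion, against 2.78, 2.71 and 2.84 in controls. Groups did not overlap, and the changes were 0.67 to 0.78. Its second probe, a dimmer one, gave values of -0.21 to -0.05 and did not pass in any comparison, so the 2 probes of Derl1 disagree, and the mean of both passed only in salt-drinking wild-type aortas. Derl3 in wild-type aortas read -1.16, -0.22 and -0.26 with salt and infusion, against -3.05, -2.23 and -2.77 with salt alone, and -0.93, -1.64 and -2.46 with infusion, against -3.09, -2.99 and -2.91 in controls. In the knockout it read -0.26, 0.75 and 1.11 with salt and infusion, against -2.82, -2.45 and -2.37 with salt alone, and 0.76, 1.12 and -2.25 with infusion, against -2.27, -2.32 and -2.02 in controls.

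Derl3 had the largest log2 change of the 33 genes in the knockout on salt (3.08 ± 0.61, adjusted p = 0.00164). Its log2 changes were 2.08 in the knockout without salt (adjusted p = 0.015, groups overlapping), 2.14 in wild-type aortas on salt (adjusted p = 0.0127) and 1.32 without (adjusted p = 0.12). The third knockout infusion array read -2.25, at the level of the controls, where the other 2 read 0.76 and 1.12. Without the third infusion arrays, the change was 3.14 in the knockout and 1.71 in wild-type aortas without salt, and both passed (adjusted p = 4.68e-06 and 0.00123).

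Edem1, which helps hand misfolded glycoproteins over to degradation, rose in 3 of the 4 comparisons. In wild-type aortas it read 1.87, 2.15 and 1.94 with salt and infusion, against 1.61, 1.54 and 1.39 with salt alone, and 1.82, 1.92 and 1.40 with infusion, against 1.61, 1.61 and 1.40 in controls. Knockout aortas read 2.02, 2.05 and 2.32 with salt and infusion, against 1.54, 1.70 and 1.72 with salt alone, and 2.17, 1.80 and 2.44 with infusion, against 1.58, 1.77 and 1.64 in controls. Its changes were 0.18 to 0.48 and the groups overlapped only in wild-type aortas without salt. With the third infusion arrays left out, the change without salt was 0.32 in the knockout and no longer passed (adjusted p = 0.0606), and 0.33 in the wild type (adjusted p = 0.0572). Herpud1, a membrane protein of the same machinery and a known target of both branches, was called once, and lower. In wild-type aortas Herpud1 read 3.53, 3.22 and 3.36 with salt and infusion, against 4.13, 3.93 and 3.88 with salt alone, and 3.34, 3.29 and 3.40 with infusion, against 3.18, 3.92 and 3.56 in controls. In the knockout it read 3.69, 3.93 and 4.04 with salt and infusion, against 4.15, 4.17 and 4.26 with salt alone, and 3.63, 3.75 and 4.44 with infusion, against 4.03, 4.06 and 3.70 in controls. It fell with infusion in salt-drinking wild-type aortas (-0.61 ± 0.19, adjusted p = 0.021), which did not pass within slide 3 alone (adjusted p = 0.0761). Its log2 changes were -0.21 in wild-type aortas without salt and -0.31 and 0.01 in the knockout with and without salt, and none of the 3 passed. The third knockout infusion array, at 4.44, was the highest of its group, and without the third infusion arrays the last of these changes was -0.24 (adjusted p = 0.284).

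Herpud1 and Hspa5 each have a motif of the Xbp1 and Atf6 branch before their start, as shown above. Their log2 changes had opposite signs in 3 of the 4 comparisons, and in all 4 without the third infusion arrays. Only 1 of the 4 Herpud1 changes was called, so the signs of the others are uncertain. Sel1l and Syvn1, which encode the scaffold and the ubiquitin ligase of the same pathway, had log2 changes of -0.35 to 0.20 and 0.01 to 0.31 and were called in none. When the third infusion arrays were left out, Sel1l was at -0.26 in the knockout without salt, and Syvn1 at 0.02 there and at 0.14 in the wild type, and none of these passed. Of the 9 genes with an ERSE, 4 rose in all 4 comparisons, 3 in some and 2 in none. Of the 20 with a window and no ERSE, 6 rose in all 4, 5 in some and 9 in none. Of all 23506 genes, 6.55% rose in all 4. ERSE stood in 7 of 13 chaperone genes with a window and in 0 of 7 stress-arm genes. Motif and role therefore cannot be told apart in these counts. Manf and Derl1, which rose in all 4, had no window and are not counted.

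Among the sensors and Xbp1, 1 call was made over the 4 comparisons. Xbp1 (probe at chr11:5425816-5425875, mm9; the files give no separate value for its spliced form) read 5.72, 5.77 and 5.79 with salt and infusion, against 5.33, 5.21 and 5.21 with salt alone in wild-type aortas, and 5.66, 5.71 and 5.03 with infusion, against 5.44, 5.54 and 5.31 in controls. In the knockout Xbp1 read 5.89, 6.12 and 6.23 with salt and infusion, against 5.97, 6.07 and 6.03 with salt alone, and 6.19, 5.90 and 6.59 with infusion, against 5.82, 5.78 and 5.90 in controls. It rose in salt-drinking wild-type aortas (0.51 ± 0.17, adjusted p = 0.0263), where the groups were apart, and did not pass in the other 3, with changes of 0.03 in wild-type aortas without salt and 0.06 and 0.39 in the knockout with and without salt. Without the third infusion arrays, the changes without salt were 0.21 in the knockout and 0.25 in the wild type (adjusted p = 0.136 and 0.0803). In salt-drinking wild-type aortas, quantile normalisation and the authors' processed values gave Xbp1 a change of 0.25, which did not pass (adjusted p = 0.242 and 0.238), and it also missed the threshold without array 1 or 3 of the salt and infusion group or array 2 or 3 of the salt group (0.49 to 0.53, adjusted p 0.0517 to 0.0766).

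Ern1 by its brighter probe read -0.35, -0.32 and -0.33 with salt and infusion, against 0.10, -0.03 and 0.38 with salt alone in wild-type aortas, and -0.44, -0.26 and -0.03 with infusion, against -0.17, -0.13 and 0.32 in controls. Its knockout values were -1.24, -0.72 and -0.79 with salt and infusion, against -0.16, -0.61 and -0.49 with salt alone, and -0.91, -1.25 and -0.49 with infusion, against -0.51, -0.56 and -0.63 in controls. The mean was lower with infusion in all 4 comparisons (-0.50 to -0.25), and none passed (smallest adjusted p = 0.0568). In a fit over all probes, a second Ern1 probe went the other way, with changes of 0.38 to 0.90 that passed without salt in the knockout (0.90, adjusted p = 0.00239) and in the wild type (0.58, adjusted p = 0.036). The 2 Ern1 probes that passed the filter thus disagree in sign, its other 2 probes were not tested, and no direction is given for the gene. With the third infusion arrays left out, the brightest probe fell in the knockout without salt (-0.51, adjusted p = 0.0323).

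Atf6 in wild-type aortas read -0.33, -0.04 and -0.21 with salt and infusion, against -0.02, -0.11 and -0.05 with salt alone, and -0.24, -0.57 and -0.51 with infusion, against 0.01, -0.10 and -0.37 in controls. Knockout values of Atf6 were -0.43, -0.17 and -0.21 with salt and infusion, against -0.05, 0.11 and -0.14 with salt alone, and -0.28, -0.61 and -0.04 with infusion, against 0.18, -0.07 and -0.03 in controls. Its means were also lower with infusion in all 4 comparisons (-0.34 to -0.13), without passing. When the third infusion arrays were left out, Atf6 fell in the knockout without salt (-0.47, adjusted p = 0.0152). Eif2ak3 read 0.53, 0.62 and 0.66 with salt and infusion, against 0.55, 0.50 and 0.34 with salt alone in wild-type aortas, and 0.69, 0.65 and 0.25 with infusion, against 0.53, 0.57 and 0.37 in controls. In the knockout Eif2ak3 read 1.06, 1.16 and 1.1 with salt and infusion, against 0.90, 1.02 and 0.97 with salt alone, and 0.95, 0.98 and 1.16 with infusion, against 0.93, 0.86 and 0.80 in controls. Its changes of 0.04 to 0.16 did not pass, nor did those without salt when the third infusion arrays were left out (0.10 in the knockout and 0.18 in the wild type).

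Of the 7 stress-arm genes, Asns and Chac1 rose in all 4 comparisons, Atf4 rose in 1, Ddit3 fell in 2, Atf3 and Ppp1r15a fell in 1 each and Trib3 was not called. Asns (probe at chr6:7625171-7625228, mm9) encodes asparagine synthetase, a classical Atf4 target. It read 2.55, 2.15 and 3.37 with salt and infusion, against 0.03, 0.04 and -0.33 with salt alone in wild-type aortas, and 3.11, 3.03 and 0.53 with infusion, against -0.14, -0.16 and 0.17 in controls. In the knockout Asns read 2.75, 3.05 and 3.53 with salt and infusion, against 0.77, 0.99 and 1.01 with salt alone, and 3.75, 3.03 and 2.61 with infusion, against 0.97, 0.76 and 0.74 in controls. All infused arrays lay above all vehicle arrays, although array 3 of the wild-type infusion group, at 0.53, stood far below the other 2. The log2 changes were 2.78 ± 0.48 and 2.27 ± 0.48 in wild-type aortas with and without salt, and 2.19 ± 0.48 and 2.31 ± 0.48 in the knockout (adjusted p at most 0.00336). Without the third infusion arrays, the change without salt was 2.57 in the knockout and 3.12 in the wild type.

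Chac1, whose product breaks down glutathione, read 0.56, 1.09 and 0.93 with salt and infusion, against -0.77, -0.27 and -0.48 with salt alone in wild-type aortas, and 0.67, 0.85 and -0.36 with infusion, against -0.60, -0.67 and -0.42 in controls. Knockout aortas read 0.40, 0.73 and 1.28 with salt and infusion, against -0.65, -0.36 and -0.27 with salt alone for Chac1, and 0.69, 0.27 and 0.91 with infusion, against -0.55, -0.31 and -0.68 in controls. It rose in all 4 comparisons by 0.95 to 1.37 (adjusted p at most 0.0158). Infused and vehicle arrays did not overlap, although array 3 of the wild-type infusion group, at -0.36, lay next to the highest control, at -0.42.

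Atf4 itself was less steady. Its wild-type values were 6.63, 6.52 and 6.87 with salt and infusion, against 6.00, 5.79 and 5.92 with salt alone, and 6.38, 6.63 and 5.78 with infusion, against 5.94, 6.23 and 6.05 in controls. In the knockout Atf4 read 6.24, 6.65 and 6.75 with salt and infusion, against 6.58, 6.48 and 6.44 with salt alone, and 6.71, 6.38 and 7.24 with infusion, against 6.46, 6.41 and 6.30 in controls. Atf4 mRNA rose with infusion in salt-drinking wild-type aortas (0.78 ± 0.21, adjusted p = 0.00878). Its log2 change was 0.19 in wild-type aortas without salt, 0.04 in the knockout on salt and 0.39 without, and none of these passed. With the third infusion arrays left out, Atf4 passed in wild-type aortas without salt (0.43, adjusted p = 0.0359) and was at 0.16 in the knockout without salt (adjusted p = 0.434). The call on salt did not hold after quantile normalisation or in the authors' processed values (0.46 in both, adjusted p = 0.0873 and 0.0878). In a fit over all probes, a second Atf4 probe gave 0.78, 0.27, 0.07 and 0.51 in the same order, with the same calls.

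Ddit3 (probe at chr10:126732518-126732821, mm9), which encodes CHOP, had a lower mean with infusion in all 4 comparisons. In wild-type aortas Ddit3 read 0.71, 1.16 and 0.65 with salt and infusion, against 1.52, 1.62 and 1.43 with salt alone, and 0.41, 0.56 and 0.81 with infusion, against 1.22, 1.37 and 1.27 in controls. In the knockout it read 0.76, 1.11 and 1.17 with salt and infusion, against 1.50, 1.53 and 1.69 with salt alone, and 0.62, 0.71 and 1.69 with infusion, against 1.48, 1.62 and 1.28 in controls. It fell in wild-type aortas with salt (-0.68 ± 0.21, adjusted p = 0.0217) and without (-0.70 ± 0.21, adjusted p = 0.0233), where the groups did not overlap. The knockout values were -0.56 ± 0.21 with salt (adjusted p = 0.0626) and -0.45 ± 0.21 without (adjusted p = 0.118). The third knockout infusion array, at 1.69, was above every knockout control, and without the third infusion arrays the log2 change of Ddit3 was -0.80 in the knockout without salt and -0.56 with salt, and both passed (adjusted p = 0.000566 and 0.00498). The log2 changes of Ddit3 and Hspa5 had opposite signs in all 4 comparisons.

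Atf3, a stress-induced transcription factor, had the largest standard error of the 33 genes. It read 1.15, 0.75 and 3.67 with salt and infusion, against 2.34, 0.61 and 1.66 with salt alone in wild-type aortas, and 0.42, 0.46 and 1.26 with infusion, against 1.40, 2.64 and 0.95 in controls. In the knockout Atf3 read 0.57, 1.43 and 1.1 with salt and infusion, against 4.55, 2.85 and 2.67 with salt alone, and 1.04, 1.48 and 3.84 with infusion, against 3.25, 3.30 and 3.64 in controls. It fell in the knockout on salt (-2.32 ± 0.75, adjusted p = 0.0305), where the groups were apart. Its change was -1.28 ± 0.75 in the knockout without salt and 0.32 ± 0.75 and -0.95 ± 0.75 in wild-type aortas with and without salt, and none of these passed. The 3.84 of the third knockout infusion array and the 3.67 of the third wild-type salt and infusion array stood more than 2 above the other 2 of their groups. When the third infusion arrays were left out, the knockout change without salt was -2.14 (adjusted p = 0.0272).

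Ppp1r15a encodes GADD34, the subunit through which eIF2 alpha is dephosphorylated again. Its wild-type values were 2.62, 3.10 and 3.46 with salt and infusion, against 3.19, 3.04 and 3.00 with salt alone, and 2.67, 2.34 and 2.46 with infusion, against 3.33, 3.67 and 3.18 in controls. In the knockout Ppp1r15a read 2.74, 3.06 and 3.20 with salt and infusion, against 3.66, 3.36 and 3.43 with salt alone, and 3.06, 2.98 and 3.95 with infusion, against 3.37, 3.29 and 3.03 in controls. It fell in wild-type aortas without salt (-0.90 ± 0.23, adjusted p = 0.00867). Its log2 change was -0.02 with salt, and -0.48 and 0.10 in the knockout with and without salt, and none of these passed. The third knockout infusion array, at 3.95, was above all 3 controls, and without the third infusion arrays the last of these changes turned to -0.21 (adjusted p = 0.437). Trib3, a pseudokinase induced by Atf4 and CHOP, read -0.08, 0.59 and 0.48 with salt and infusion, against 0.47, 0.64 and 0.27 with salt alone in wild-type aortas, and 0.11, 0.26 and 0.24 with infusion, against 0.60, 0.65 and 0.65 in controls. Knockout values of Trib3 were 0.17, 0.95 and 1.04 with salt and infusion, against 1.23, 0.63 and 1.18 with salt alone, and 0.62, 0.72 and 0.41 with infusion, against 0.96, 0.93 and 1.18 in controls. All its changes were below 0 (-0.44 to -0.13) and none passed.

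Set side by side, 13 and 9 of the 15 chaperone genes rose and 0 fell in wild-type aortas with and without salt, and 9 and 11 rose and 0 fell in the knockout with and without salt. Of the 7 stress-arm genes, 3 rose and 1 fell with salt and 2 rose and 2 fell without in wild-type aortas. In the knockout, 2 rose and 1 fell with salt and 2 rose and 0 fell without. Of all genes, 12.2% to 16.3% were called higher and 11.8% to 16.6% lower in these 4 comparisons. With 7 genes, the stress-arm counts are too small to be set apart from those shares. The median change of the chaperones was 0.87, 0.54, 0.69 and 0.67 in the order of these 4 comparisons, and that of the stress arm 0.32, -0.43, -0.30 and 0.10. On single arrays, against the mean of the genotype's own controls, the chaperone median lay between 0.58 and 0.96 on the 6 infused knockout arrays and between 0.23 and 1.14 on the 6 infused wild-type arrays. It lay between -0.21 and 0.09 on all 12 vehicle arrays. The stress-arm median spanned -0.49 to 0.72 on infused knockout arrays and -0.52 to 0.80 on infused wild-type arrays, and those 2 highest values were array 3 of the knockout infusion group and array 3 of the wild-type salt and infusion group, the only arrays of their groups on another slide.

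**Figure D3:**
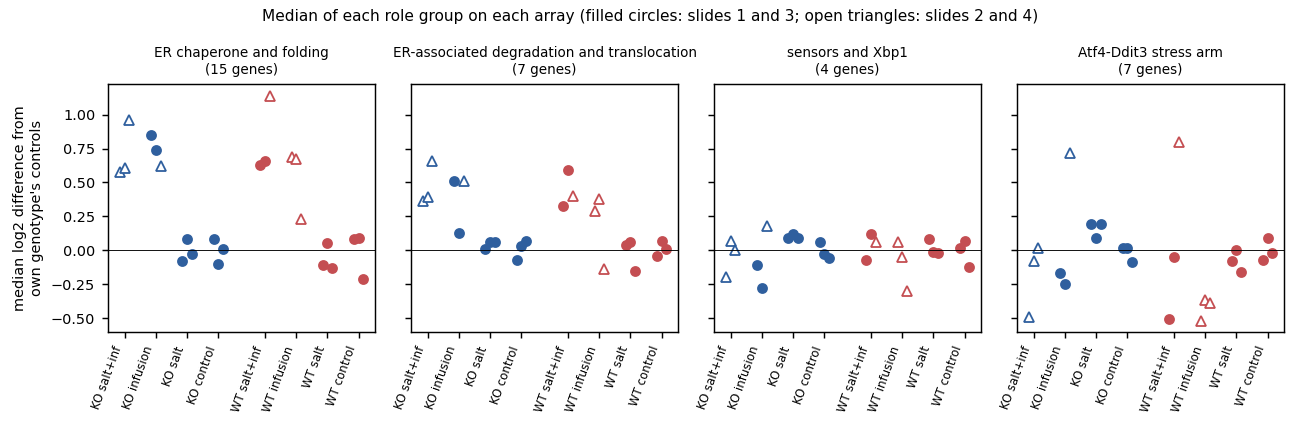
Median log2 difference of each role group from the mean of the same genotype's controls (y axis) on each array (symbols, 3 per group; shapes by slide). The chaperone medians of all infused arrays, 0.23 to 1.14, lie above those of all vehicle arrays, -0.21 to 0.09, while the stress-arm medians of infused arrays lie on both sides of 0.

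Genes of the same pathways outside the set were read from 8 further lists. Of all genes, 13.2% rose and 15.5% fell with salt and infusion against wild-type controls. With infusion against controls in the knockout, 14.4% rose and 16.2% fell. Of 21 genes of translocation, signal peptidase and glycosylation, 17 rose and 1 (Sec63) fell with salt and infusion against wild-type controls, and 16 rose and 0 fell with infusion in the knockout. Rpn1, of the oligosaccharyltransferase, changed by 0.82 ± 0.13 and 0.73 ± 0.13 in those 2 comparisons. Sec61a1, the channel's pore subunit, changed by 0.77 and 0.77, and Ssr1, its neighbour in the translocon, by 0.86 and 0.89. Of 15 genes that fold or modify collagen in the ER, 11 rose and 0 fell in the wild type and 10 and 0 in the knockout. They included Plod2, a lysyl hydroxylase (1.27 ± 0.16 and 1.14 ± 0.16), Fkbp10, a prolyl isomerase (1.05 and 0.79), and P4ha2, which pairs with P4hb (0.72 and 0.52).

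Other ER folding enzymes rose in 8 of 17 in both comparisons, and 1 (Sdf4) fell in each. Among them, Uggt1, the glycoprotein folding sensor, changed by 1.00 and 0.55, Calu by 1.27 and 0.94, and Txndc5 by 0.77 and 0.46. Of 13 other degradation genes, 5 rose and 0 fell in the wild type and 4 rose and 1 (Edem2) fell in the knockout, with Ube2g2 (0.89 and 0.98) and Ube2j1 (1.02 and 1.12), both ubiquitin-conjugating enzymes, and Derl2 (0.65 and 0.65) showing the smallest p.

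Of 21 other integrated stress response genes, 11 rose and 1 (Vldlr) fell in wild-type aortas given salt and infusion, and 8 rose and 1 (Vldlr) fell with infusion in the knockout. Psat1, of serine synthesis, changed by 3.13 ± 0.38 and 3.02 ± 0.38. Mthfd2, of mitochondrial folate metabolism, changed by 2.17 and 1.83, and Gdf15, a stress cytokine, by 1.90 and 1.34. Of 12 aminoacyl-tRNA synthetases, which charge tRNAs for translation, 6 rose in the wild type and 10 in the knockout and 0 fell in either, with Cars (0.74 and 0.81), Gars (0.82 and 0.91) and Tars (0.76 and 0.75) at the smallest p. Of the other eIF2 alpha kinases, 1 rose in the wild type, and 1 rose and 1 fell in the knockout. In these 2 comparisons the log2 changes of Eif2ak1 were 0.37 (adjusted p = 0.0453) and 0.11 (adjusted p = 0.579), those of Eif2ak2 0.32 (adjusted p = 0.225) and 0.64 (adjusted p = 0.0188), and those of Eif2ak4 -0.31 (adjusted p = 0.0776) and -0.40 (adjusted p = 0.0243). Heat shock proteins of the cytosol and mitochondria rose in 2 of 14 in the wild type and 3 of 14 in the knockout. None fell, and Cryab (0.93 and 1.00) and Hspa4 (0.48 and 0.66) were the 2 that passed in both. These counts lie near the shares of all genes given above, and the eIF2 alpha kinases are too few to set beside them.

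**Figure D4:**
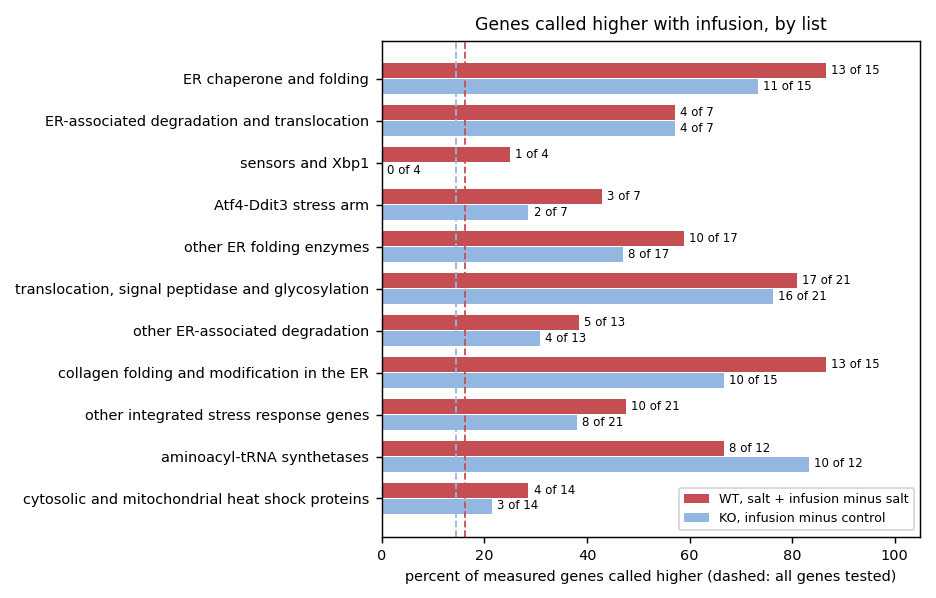
Percent of each list's measured genes called higher (x axis, from 0) with salt and infusion against salt in the wild type (WT, red) and with infusion against controls in the knockout (KO, blue), with counts at the bars; dashed lines mark all genes tested, 16.3% and 14.4%. Chaperones (13 and 11 of 15), translocation and glycosylation (17 and 16 of 21) and collagen folding (13 and 10 of 15) reach the highest shares with the synthetases (8 and 10 of 12).

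Markers of other cell types moved with infusion too, and their part in these results was not tested. In whole aorta, fewer cells of a type and less RNA per cell cannot be told apart. The 7 measured markers of dividing cells rose in all 4 infusion comparisons, with a median log2 change of 4.28 to 5.27. Mki67, Ccnb1, Birc5 and Prc1 were well above background on all 24 arrays, and Bub1, Cdk1 and Top2a on 12, 18 and 23. The filter can keep such a gene through the groups where it is high, so the size of those changes is uncertain. The summed level of the 7 markers, in multiples of the array's 75th percentile, was 16.6 to 103 with infusion and 2.06 to 3.53 in controls of the knockout. In wild-type aortas it was 28.2 to 77.9 with infusion and 2.26 to 4.15 in controls. Macrophage markers rose in 8 to 11 of 11, with sums of 118 to 244 with infusion and 79.5 to 96.5 in controls of the knockout, and 80.8 to 166 and 47.7 to 70.7 in the same groups of the wild type. For plasma cells, which are rich in ER, the list holds B cell markers too. Of its 7 measured markers 0 to 1 rose and 0 to 2 fell. Their sums were 2.57 to 3.86 with infusion and 2.81 to 3.14 in controls of the knockout. In the wild type the sums were 2.82 to 3.09 and 2.49 to 3.19. Sdc1 read 0.48 to 1.65 on the log2 scale and the others at most -0.46, so the sums lean on Sdc1. Ms4a1 and Prdm1 passed the background test on 13 arrays of 24 each. Jchain, Mzb1 and Pou2af1, which were not among the 7, passed it on 9, 2 and 2. Smooth muscle markers rose in none of the 4 comparisons and fell in 0 to 3 of 8, and fibroblast markers fell in 3 to 5 and rose in 0 to 2 of 8. Of all genes, 12.2% to 16.3% rose and 11.8% to 16.6% fell in these comparisons. On the third infusion arrays the dividing-cell median was 2.62 in the knockout and 3.43 in the wild type above controls, the lowest of their groups.

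Slides bear on these comparisons unequally. Knockout infusion against controls could be read within slide 1 (2 against 3 arrays). There, 16 of the 33 genes rose and 4 fell beside 43.4% of all genes called, with Hspa5 at 0.84 and Asns at 2.57. The same arrays remain when the third infusion array is left out, so the 2 readings share their log2 changes and are not separate support. The 4 that fell within slide 1 were Ddit3 (-0.80), Atf3 (-2.14), Ern1 by the same probe as above (-0.51) and Atf6 (-0.47). In wild-type aortas, salt and infusion against salt could be read within slide 3 (2 against 3 arrays), where 20 rose and 1, Ddit3 (-0.58), fell beside 28.8% of all genes called.

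Wild-type infusion and its controls lay on different slides, as did knockout salt and infusion and its salt group. With slide as a fixed term, which ties slides 3 and 4 through 1 array, 0 of the 33 genes rose and 1, Ppp1r15a (-1.50, adjusted p = 0.0224), fell with infusion in wild-type aortas without salt, where 1.12% of all genes were called. The log2 change of Hspa5 was 0.07 and that of Asns 1.25. For the knockout on salt, the same term, tied through the third infusion array that stood apart, gave 13 higher and 8 lower beside 36.8% of all genes called, with Ddit3 at -1.58 and Derl3 at 6.27. Without the third infusion arrays of both genotypes and without a slide term, 18 rose and 3 fell in wild-type aortas without salt beside 40.1% of all genes called, and 16 rose and 4 fell in the knockout without salt beside 45% of all genes called. The calls in wild-type aortas without salt also rested on the other groups and on single arrays: 2 of the 15 held in a fit of the compared groups alone, 8 of the 15 held without infusion array 1 and 8 without infusion array 2.

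**Figure D5:**
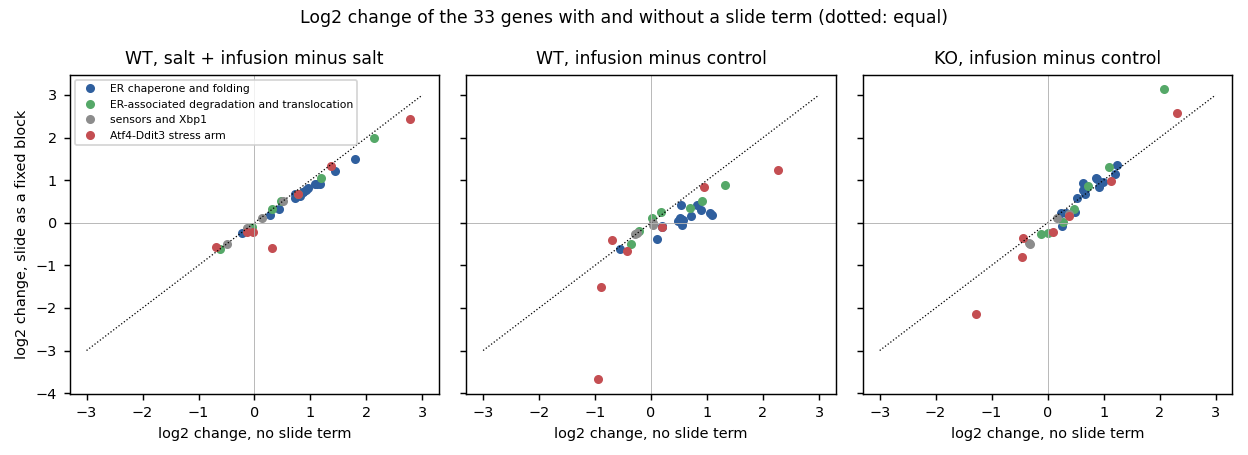
Log2 change of the 33 genes with slide as a fixed term (y axis) against that without it (x axis), in 3 infusion comparisons, coloured by role; the dotted line marks equality. Values lie along the line in salt-drinking wild-type (WT) aortas and in knockout (KO) aortas without salt. In wild-type aortas without salt, most chaperones lie closer to 0 with the slide term, Hspa5 at 0.07. The knockout on salt, where the term moved Derl3 and Ddit3 further from 0, is not plotted.

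For salt by itself none of the 33 genes passed the test. With salt against controls, 0 of all 23506 genes were called by limma in either genotype (0%), with 495 genes at an unadjusted p under 0.05 in the wild type, of which 1 was in the set (Herpud1, 0.43), and 713 in the knockout, of which 0 were in the set. During infusion, salt likewise gave 0 calls (0%), with 1355 genes at an unadjusted p under 0.05 in the wild type, 2 of them in the set, and 1064 in the knockout, 0 of them in the set. The 2 were Ppp1r15a (0.57 ± 0.23, unadjusted p = 0.0235) and Hspa5 (0.45 ± 0.19, unadjusted p = 0.0268), with adjusted p of 0.844 and 0.846. In wild-type aortas 32 of the 33 genes had a higher mean with salt and infusion than with infusion alone, with a median of 0.25. In the knockout it was 15 of 33, with a median of 0. The medians of all genes were -0.02 and 0.02. The wild-type infusion array that stood apart is in the first comparison, and without the third infusion arrays the median there was 0.12. All wild-type infusion arrays lay on slide 4 and 2 of the 3 with salt and infusion on slide 3, so salt and slide are mixed. In the knockout, salt and infusion lay on slide 2 and 2 of the 3 infusion arrays on slide 1. The 33 genes are not replicates, and their counts test no difference between genotypes.

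The response to infusion was compared between genotypes and between drinks by the difference of the changes itself. In these 4 tests 0 of the 33 genes passed, beside 0 genes in all for the genotypes without salt and for either test of salt by infusion (0%), and 17 genes for the genotypes on salt (0.0723%, with 0.0638% higher and 0.00851% lower). Unadjusted p under 0.05 was reached by 1541 genes for the genotypes without salt, 2106 with salt, and 1066 and 1063 for salt by infusion in the wild type and the knockout. The set held 2, 2, 1 and 0 of these. Without salt they were Ppp1r15a, whose change was higher in the knockout than in the wild type by 1.00 ± 0.33 (adjusted p = 0.581), and Dnajb9, by 0.82 ± 0.30 (adjusted p = 0.638). On salt they were Atf4 (-0.73 ± 0.29, adjusted p = 0.466) and Atf3 (-2.65 ± 1.07, adjusted p = 0.471), lower in the knockout. In the wild type, salt by infusion gave Ppp1r15a (0.88 ± 0.33, adjusted p = 0.918).

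Knockout against wild type, where slide and genotype cannot be told apart, gave calls for few of the 33 genes. In controls 5 were higher and 1 lower in the knockout, beside 37.1% of all genes (14.3% higher and 22.8% lower). Dnajc3 averaged 3.30 ± 0.07 in the knockout and 2.58 ± 0.16 in the wild type (SD, n = 3 each), a log2 difference of 0.73 ± 0.13 (adjusted p = 0.000201). Manf (1.07), Canx (0.41), Eif2ak3 (0.38) and Hspa5 (0.50) were the other 4, and Ern1 was the lower one (-0.57), by the brightest of its probes. With salt and infusion 4 were higher and 1 lower in the knockout, beside 28.5% of all genes (10.6% higher and 17.9% lower), namely Eif2ak3 (0.50), Dnajc3 (0.46), Sel1l (0.57) and Manf (0.80), with Ern1 lower (-0.58). The control count was 3 when array 3 of the wild-type controls was dropped. The count with salt and infusion was 2 when wild-type array 1 or 2 of that group was dropped, 3 when knockout array 3 was dropped and 8 when wild-type array 3 was dropped.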

How the data were processed

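RNA of 24 mouse aortas was read on Agilent arrays with 1 dye, 3 arrays to a group; the design states biological replicates, while the labels' protocols describe RNA from cells. The authors deposited, per the file headers, background-subtracted intensities of Feature Extraction (9.5.1.1 per the submitters' processing notes; the headers name a later version) with probe coordinates on mm9, and other columns of 0 or 1 flags for spots well above background. Their value table holds linear intensities, quantile-normalised between arrays as its identical sorted columns show.

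From these, the log2 of the deposited processed intensity minus its array's 75th percentile was computed. Control spots and 2910 flagged outlier spots were left out, and probes were kept if all 3 arrays of some group had them well above background and every group had 2 or more values (33379 probes). The brightest probe stood for a gene, giving 23506 genes. limma 3.58.1 in R 4.3.3 fitted all 24 arrays (lmFit, eBayes), and genes were called at a Benjamini-Hochberg adjusted p under 0.05. The number of arrays limits the precision. In simulated data, 200 genes of 23468 were changed. For wild-type infusion against controls, 20% of those changed by 0.5 on the log2 scale, 52% by 1 and 94% by 2 were recovered. There were 8 false calls. The simulated errors were independent and held no slide effect, and far fewer genes were changed than were called in the data. These rates therefore do not carry over to comparisons across slides, such as this one.

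The 33 genes, the other lists and the tests were chosen with earlier results of these data known. Values on each array are given for Hspa5, Xbp1, Atf4, Ddit3 and up to 5 further genes per role with the smallest p in any comparison of an infused with a vehicle group; of other pathway lists, up to 3 genes with the smallest p among those called in wild-type aortas given salt and infusion are named, and all eIF2 alpha kinases. Sec63, Sdf4, Edem2 and Vldlr were named after their values were seen. Alternatives were quantile normalisation, normexp background correction, the authors' values, other probe filters, averaging a gene's probes, a variance trend, slide as a fixed or random block or single slides, a replicate block, the compared groups alone and each array left out. Titles number the wild-type salt arrays 2 to 4 and source names 1 to 3; the source names were used. Equal numbers did not pair samples: correlations of their deviations ran from -0.449 to 0.26, and 0 comparisons had all 3 over 0.1. Promoters were searched in RefSeq's table for GRCm38.p6.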

Additional observations from a re-analysis of the deposited data

How the results depend on the processing

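All 120 calls of a gene in a comparison kept their direction under every alternative that could be fitted, but fewer kept their call with slide as a fixed block (84 of 109). Infusion in wild-type aortas without salt was the least stable: 15 genes were called, against 1 with slide as a fixed block, 1 with slide as a random block (slide correlation 0.484) and 2 in a fit of the compared groups alone. Knockout infusion without salt gave 11 in a fit of the compared groups alone, against 17. With slide as a fixed block, Derl3 was the 1 gene called for salt during infusion and the 1 for salt by infusion in the knockout, and 6 genes were called for the genotype difference in the response on salt (Derl3 higher; Syvn1, Atf4, Ddit3, Atf3 and Ppp1r15a lower), against 0 in each; that block rests on 1 array that stood apart. It also turned the sign of Syvn1 in the knockout on salt (-0.67, adjusted p = 0.0497), of Dnajb9 with salt and infusion against knockout controls (-0.95, adjusted p = 0.0131) and of Ddit3 in the genotype difference on salt (-1.0, adjusted p = 0.048). The cause was not tested. Knockout against wild-type controls gave 11 calls with normexp, 1 with slide as a random block (Dnajc3), 14 with the compared groups alone and 13 without the third infusion arrays (chosen after seeing the data), against 6. With salt and infusion the genotypes gave 9 after quantile normalisation, 10 with normexp, 9 in the authors' values, 0 with the random block, 3 with the compared groups alone and 12 without the third infusion arrays, against 5. In the infusion comparisons above, the share of all genes called moved with the setting too. The counts here and in the next paragraph stand without that share. They show how calls depend on processing and are no result about the set.

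Leaving out each array in turn gave 8 to 17 calls for wild-type infusion, 13 to 20 for knockout infusion, 17 to 21 and 13 to 17 for infusion on salt in the wild type and the knockout, 15 to 19 and 13 to 18 for salt and infusion against controls, 3 to 7 for genotype in controls and 2 to 8 for genotype with salt and infusion, and 0 for the salt and difference comparisons. The replicate block, with no pairing in the design, gave 15, 17, 24, 17, 19 and 17 calls in the 6 infusion comparisons and 5 and 4 between genotypes. Under it Ern1 was gained in both infusion comparisons on salt (-0.49 and -0.50), and Edem1 (wild type) and Pdia4 (knockout) with salt and infusion against controls, Hspa5 between control genotypes and Manf between infused genotypes on salt were lost (adjusted p 0.0516, 0.0521, 0.0602 and 0.0517). All 33 genes were well above background on every array. Hyou1 and Derl3 were dim, with vehicle group means of -2.8 to -2.12 and -3 to -2.2. Whether dim signal limited their changes was not tested.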

Other observations

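An ERSE before the start was not limited to the genes of the set. Among all promoters given, those of 35 genes had one within 250 bases, of which 26 were outside the set and 9 of those were measured. With infusion on salt in wild-type aortas 2 of these 9 were called higher and 3 lower, with a median log2 change of -0.42, and in the knockout on salt 1 was higher and 2 lower, with a median of -0.34. Without salt, 1 was higher and 3 lower in the knockout and 0 were higher and 2 lower in the wild type. Of all genes, 12.2% to 16.3% were called higher and 11.8% to 16.6% lower in these comparisons. The 9 genes are too few to be set apart from those shares.

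Of 6 measured neutrophil markers 1 rose in each infusion comparison. Their median against the genotype's own controls was 1.32, 0.74 and 0.81 on the knockout infusion arrays, -0.06, 0.35 and 0.48 on those with salt and infusion, 1.70, 2.88 and -0.19 on the wild-type infusion arrays and 0.83, 0.33 and 0.92 on those with salt and infusion. Of 7 endothelial markers 0 to 2 rose and 0 fell. Of 7 T cell markers 1 rose in the knockout on salt, 1 fell in the knockout without salt and 0 were called in the wild type. Of 6 adipocyte markers 2 fell in the knockout without salt and 0 were called in the other comparisons. The shares of all genes in the paragraph above apply to these counts too.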
